A study of Mus musculus with 6 samples.

Results

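The 10 genes described here encode chemokines and cytokines that endothelium releases under stress: Ccl2, Ccl5, Ccl7, Cxcl1, Cxcl10, Cxcl12, Cxcl16, Cx3cl1, Csf1 and Il6. They were chosen by gene symbol, and all 10 were among the 13595 genes of the deposited table. RNA was measured by poly(A) sequencing in 6 libraries of cultured primary cells that had been selected from mouse liver for CD31, a surface protein of endothelium. The donors were C57BL6/J mice 4 weeks old, 3 libraries being labelled male and 3 labelled female, with replicate numbers 4, 5 and 6 in each group. Every library was from cells given 100 µM indoxyl sulfate, a tryptophan metabolite that activates the aryl hydrocarbon receptor (AHR), and held for 6 hours in hypoxia and nutrient deprivation. The groups thus share the ligand and the hypoxia, and the comparison is of the sex labels under that treatment. Cells given DMSO, which the design text also names, were not analysed here. The labels do not say whether a replicate is a mouse, an isolation or a culture well, so each SD and p-value covers the spread between these libraries, which may be technical.

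Chemokines are small secreted proteins that guide leukocytes along gradients held on the vessel wall, each acting through G protein-coupled receptors on the arriving cell. CX3CL1 and CXCL16 are made as transmembrane proteins that tether leukocytes until ADAM proteases cut them free. Many inflammatory chemokine genes and Il6 are classical targets of NF-kB, and Cxcl10 and Ccl5 also respond to interferon regulatory factors. Csf1 encodes the growth factor that maintains macrophages, and IL-6 is a cytokine that liver cells answer through the shared receptor chain gp130.

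Between 22303270 and 31189363 reads per library fell on genes in the table, and 3 reads correspond to a normalized read count of 0.106 to 0.142. Xist, the RNA of the inactive X chromosome, followed the labels, with 234 to 324 in the libraries labelled female and 0.124 to 0.458 in those labelled male. The Y-linked genes did not: in the libraries labelled female, Ddx3y stood at 91.5%, Uty at 89.6%, Kdm5d at 54.8% and Eif2s3y at 51.3% of the level in those labelled male. Each direction below therefore rests on labels that these genes go against. Male replicate 4 stood apart from the others of its group, with a chi-square statistic per gene of 43.6 and 45.4 against them, where male 5 and male 6 gave 5.98. Values without it are given beside each of the 10 genes, and for list genes where they change the call. No batch is named in the labels, and one that ran along with the sex label cannot be told apart from it.

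The markers of the cultured cells also differed between the groups. Endothelial markers, 15 of 15 present, summed to normalized read counts of 2393 to 2512 in the libraries labelled male and 1278 to 1341 in those labelled female. Pecam1, which encodes CD31, was at 391 to 423 against 73.5 to 74.5. Of the endothelial markers, 12 were tested and reached a value of 1 in both groups. In the libraries labelled female, 9 of them were called lower and 2 higher (median log2 difference -1.88). The 2 called higher were Eng (296 to 337 against 399 to 423) and Ptprb (4.31 to 5.43 against 57.7 to 65.4). Vwf and Robo4 passed the filter on low values only through the libraries labelled male. The sinusoidal list, 10 of 10 present, summed to 501.0 to 538.3 against 10.35 to 12.47, with Clec4g and Fcgr2b at no more than 3 reads in any library. In the libraries labelled male most of that sum was Lyve1, which lymphatic vessels also express, and the other 9 genes summed to 23.5 to 31.4 against 5.98 to 7.30. Stab2 was at the level of a few reads and overlapped between the groups (0 to 0.114 against 0.095 to 0.415). Stellate and fibroblast markers (10 of 12) summed to 2817 to 3522 against 969.8 to 987.6, and cholangiocyte markers (7 of 7) to 1648 to 2496 against 513.0 to 614.8. Most of the cholangiocyte sum was Spp1, Krt19 and Sox9, while Epcam stood at 0.035 to 0.114 against 0.083 to 0.522 and was not tested. Sums follow the most abundant genes: the stellate marker Des and the cholangiocyte marker Krt7 were called higher, against their lists, and the stellate marker Reln, not tested, was 4.13-fold higher. In the other direction, smooth muscle markers (7 of 7) summed to 353.9 to 471.0 against 2712 to 3449, and mesothelial markers (5 of 6) to 17.71 to 21.29 against 360.8 to 400.6. The smooth muscle marker Smtn, at 42.2% of its level in the libraries labelled male, was called lower. Macrophage markers (10 of 13) summed to 7.548 to 10.07 against 13.15 to 15.81, and 6 of them, among them C1qa, C1qb, C1qc and Marco, had at most 3 reads in every library. Hepatocyte markers (8 of 10) summed to 2.488 to 4.232 against 2.042 to 8.259. The 13 markers of lymphocytes and NK cells were not analysed here. These marker levels moved with sex label, and so with every group difference given for the 10 genes, and their part in those differences was not tested. In bulk RNA, fewer cells of a type and less RNA per cell cannot be told apart.

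**Figure D1:**
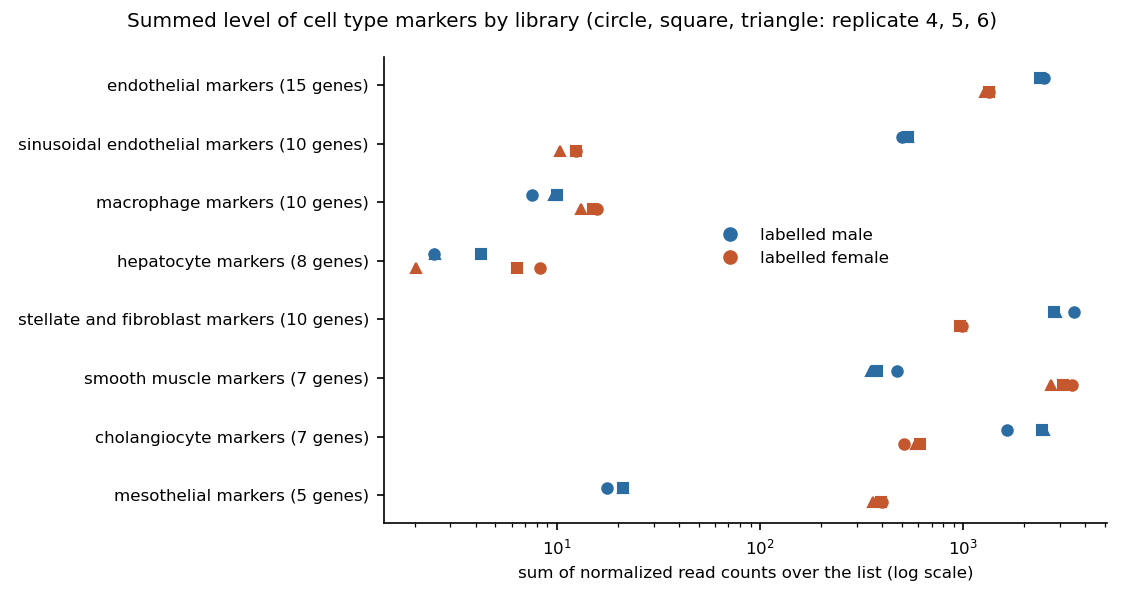
Summed normalized read counts of each marker list (x axis, log scale) in each of the 6 libraries, blue for the libraries labelled male and orange for those labelled female, the shape giving the replicate number. Endothelial markers were at 2393 to 2512 against 1278 to 1341, whereas mesothelial markers were at 17.71 to 21.29 against 360.8 to 400.6.

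The 10 genes did not move together. Il6 and Csf1 were higher in the libraries labelled female. Ccl5, Cx3cl1, Cxcl1 and Cxcl12 were lower there, and Ccl2, Ccl7, Cxcl10 and Cxcl16 did not pass the test. Differences were tested with limma on log2(normalized read count + 1), with p-values adjusted over all 12568 tested genes by the Benjamini-Hochberg method and a threshold of 0.05. By this rule 6 of the 10 genes were called, whereas 69.3% of all tested genes were. Higher calls numbered 2 of 10, against 34.6% of all tested genes, and lower calls 4 of 10, against 34.6%. The groups did not overlap for the same 6 genes, against 74.1% of tested genes, so the share of the 10 genes that differed was close to that of the whole table. The median log2 difference was -0.11 over the 10 genes and 0.01 over all tested genes, while the median absolute difference was 1.47 and 0.46.

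**Figure D2:**
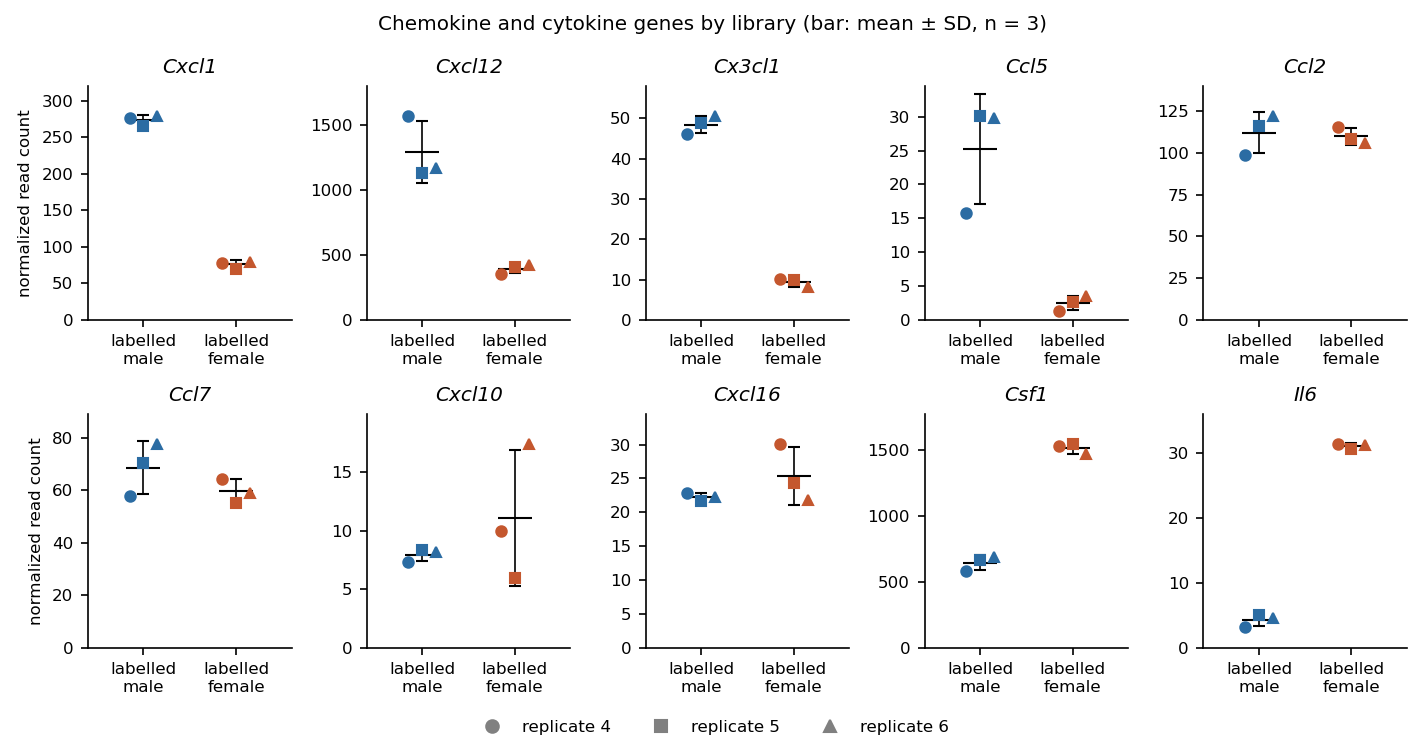
Normalized read count (y axis, from 0, on a scale of its own in each panel) of the 10 genes in the 3 libraries labelled male and 3 labelled female. Shapes give the replicate number and the bars the mean and SD. The groups lie apart for Cxcl1, Cxcl12, Cx3cl1, Ccl5, Csf1 and Il6, and overlap for Ccl2, Ccl7, Cxcl10 and Cxcl16.

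Because kappa B sites link several of these genes to the same transcription factor, their promoters were read from the RefSeq promoter table (GRCm38.p6, not the mm39 build that the submitters name). It held an entry for 6 of the 10 genes, Cxcl1, Cxcl10, Cxcl12, Cx3cl1, Csf1 and Il6. Ccl2, Ccl5, Ccl7 and Cxcl16 had none. A form of the kappa B motif (GGG, 2 bases of any kind, TT, 1 base of any kind, CC) was searched on both strands. It occurred in the 250 bases before the start of 4 of these 6 genes and in 4.11% of all 32851 promoters of that length. The 4 are printed 5′ to 3′ on the strand of the gene, with the matches in capitals.
Il6, chr5:30012864-30013113, plus strand: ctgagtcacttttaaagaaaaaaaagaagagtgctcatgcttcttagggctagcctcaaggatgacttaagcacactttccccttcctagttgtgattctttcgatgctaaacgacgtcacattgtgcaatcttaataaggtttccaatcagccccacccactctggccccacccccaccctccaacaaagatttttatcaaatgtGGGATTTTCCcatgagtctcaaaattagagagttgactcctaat
Csf1, chr3:107760470-107760719, minus strand: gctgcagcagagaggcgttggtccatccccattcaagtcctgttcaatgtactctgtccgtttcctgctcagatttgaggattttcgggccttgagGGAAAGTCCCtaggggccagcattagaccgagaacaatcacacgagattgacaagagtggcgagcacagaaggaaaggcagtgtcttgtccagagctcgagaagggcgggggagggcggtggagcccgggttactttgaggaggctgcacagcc
Cxcl1, chr5:90890995-90891244, plus strand: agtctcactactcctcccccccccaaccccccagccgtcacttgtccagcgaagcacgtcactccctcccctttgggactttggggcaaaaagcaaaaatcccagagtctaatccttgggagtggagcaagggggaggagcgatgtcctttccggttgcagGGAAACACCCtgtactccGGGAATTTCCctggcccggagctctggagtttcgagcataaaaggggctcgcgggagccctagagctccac
Cxcl10, chr5:92348890-92349139, minus strand: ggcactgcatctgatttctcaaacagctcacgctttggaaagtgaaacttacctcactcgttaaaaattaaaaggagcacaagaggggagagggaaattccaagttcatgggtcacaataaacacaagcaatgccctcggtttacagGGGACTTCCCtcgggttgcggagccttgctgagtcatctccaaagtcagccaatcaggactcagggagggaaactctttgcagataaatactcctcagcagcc

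The match lay 44 to 35 bases before the start in Il6 (GGGATTTTCC) and 103 to 94 bases before it in Cxcl10 (GGGACTTCCC). Cxcl1 held 2 matches, GGGAATTTCC at 71 to 62 bases and, on the opposite strand, GGGTGTTTCC at 89 to 80 bases before its start. Csf1 held GGGACTTTCC on the opposite strand at 154 to 145 bases. The 4 genes that hold these letters did not share a direction: Il6 and Csf1 were called higher in the libraries labelled female, Cxcl1 lower, and Cxcl10 was not called. Cxcl10 alone of the 6 held TTTC, 2 bases of any kind and TTTC, a form of the interferon-stimulated response element found on either strand in 2.98% of all promoters. The AP-1 form TGANTCA was in Cxcl10 and Il6, and in 6.75% of all promoters. GCGTG, the core bound by AHR with its partner ARNT and also by hypoxia-inducible factors, was in Cxcl10 and in 28.2% of all promoters. ACGTG, the other hypoxia-inducible factor core, was in Cxcl1 and in 16.6%. A match describes letters in this window and shows neither binding nor its absence.

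Il6 had the largest rise. Its normalized read count was 3.23, 4.96 and 4.63 in male replicates 4, 5 and 6, and 31.4, 30.7 and 31.3 in female replicates 4, 5 and 6. All 3 libraries labelled female were above every library labelled male, and they lay close together. The mean rose from 4.27 ± 0.914 to 31.1 ± 0.382 (SD, n = 3), or 7.28-fold. The log2 difference was 2.62 (SE 0.13, limma adjusted p = 8.71e-07), and 2.47 without male replicate 4. By size, this difference was above that of 97.2% of tested genes.

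Csf1, the macrophage growth factor, was the other gene that rose. It stood at 579, 665 and 686 in male replicates 4, 5 and 6 and at 1524, 1540.5 and 1464 in the female replicates. The groups were far apart and every library labelled male was below every one labelled female. The mean rose from 643 ± 56.8 to 1509.6 ± 40.4 (SD, n = 3), 2.35-fold. On the log2 scale, the difference was 1.23 (SE 0.08, limma adjusted p = 2.89e-06), and 1.16 without male replicate 4. Csf1r, its receptor and itself a macrophage marker, was 2.74 to 3.97 against 4.61 to 6.14, a log2 difference of 0.56 (limma adjusted p = 0.0101).

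Among the chemokines that attract neutrophils, Cxcl1 fell. Its normalized read count was 276, 265 and 278 in male replicates 4, 5 and 6 and 78.1, 69.6 and 79.6 in the female ones. Each group was tight, and no value of either came near the other. The mean in the libraries labelled female, 75.8 ± 5.40, was 27.8% of the 273 ± 7.19 in those labelled male (SD, n = 3). The log2 difference was -1.84 (SE 0.07, limma adjusted p = 1.67e-07), and -1.83 without male replicate 4. Cxcr2, the neutrophil receptor of CXCL1, went the other way, at 3.04 to 4.54 against 6.85 to 8.69 (log2 difference 0.96, limma adjusted p = 0.000537).

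Cxcl12, which retains progenitor cells and leukocytes through CXCR4 and is a known target of hypoxia-inducible factor, also fell. It was read at 1565, 1134 and 1171 in male replicates 4, 5 and 6 and at 354, 403 and 422 in the female replicates. Male replicate 4 was the highest library by a wide margin, but the lowest of its group was still above all 3 libraries labelled female. The mean fell from 1289.8 ± 239 to 393 ± 35.3 (SD, n = 3), to 30.5%. On the log2 scale, the difference was -1.70 (SE 0.13, limma adjusted p = 7.50e-06), and -1.55 without male replicate 4. Ackr3, the scavenging receptor of CXCL12, fell too, from 69.7 to 102 in the libraries labelled male to 17.8 to 23.6 (log2 difference -1.98, SE 0.16, limma adjusted p = 1.24e-05). Cxcr4 was below the filter on low values and was not tested, with 29, 23 and 40 reads against 1, 1 and 4.

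The transmembrane chemokines differed from each other. Cx3cl1, the ligand that captures cells bearing CX3CR1, had normalized read counts of 46.2, 48.8 and 50.5 in male replicates 4, 5 and 6. The female replicates had 10.2, 9.81 and 8.07. The groups were separated by a wide gap, with little spread inside either. The mean fell from 48.5 ± 2.19 to 9.37 ± 1.14 (SD, n = 3), to 19.3%. The log2 difference was -2.26 (SE 0.10, limma adjusted p = 4.00e-07), and -2.29 without male replicate 4. 

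Cxcl16, the ligand of CXCR6, was at 22.9, 21.7 and 22.2 in the libraries labelled male and 30.0, 24.3 and 21.8 in those labelled female. Female replicate 6 lay within the range of the male group, so the groups overlapped. On the log2 scale, the difference was 0.17 with a 95% interval from -0.10 to 0.44 (limma adjusted p = 0.224). It was 0.19 without male replicate 4, 0.045 without female replicate 4 (limma adjusted p = 0.698) and 0.27 without female replicate 6 (limma adjusted p = 0.0688). Of the 50-base words of Cxcl16's longest coding transcript in GENCODE M21, 19.0% also occur in transcripts of another gene, chiefly those of the overlapping Zmynd15, which was read at 1.12 to 1.70 over the 6 libraries. How reads were assigned between them was not tested. Adam10, which sheds both ligands, was called lower (442 to 493 against 322 to 360, log2 difference -0.44, limma adjusted p = 0.000545). So was Adam17 (138 to 162 against 90.6 to 99.0, log2 difference -0.61, limma adjusted p = 0.000167).

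The monocyte-attracting genes Ccl2 and Ccl7, whose products both act through CCR2, were not called. Ccl2 was at 98.5, 116 and 122 in male replicates 4, 5 and 6 and at 116, 108 and 106 in the female replicates. The female values all lay inside the male range. The log2 difference was -0.02, with a 95% interval from -0.22 to 0.18 (limma adjusted p = 0.829). Ccl7 was at 57.9, 70.5 and 77.5 against 64.3, 55.3 and 59.1, and here too the groups overlapped. Its log2 difference was -0.19 (95% interval from -0.45 to 0.06, limma adjusted p = 0.149). This rested on male replicate 4, the lowest male library for both genes, at 82.8% of the mean of male 5 and male 6 for Ccl2 and 78.2% for Ccl7. Without it, Ccl7 was called lower (-0.31, limma adjusted p = 0.00368), where without male replicate 6 it was -0.10 (limma adjusted p = 0.440), and Ccl2 remained uncalled (-0.11, limma adjusted p = 0.0870).

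Ccl5, which attracts T cells and monocytes, had the largest fall of the 10 genes. It was read at 15.8, 30.0 and 29.8 in male replicates 4, 5 and 6, and at 1.33, 2.56 and 3.51 in the female replicates, the latter from 32, 58 and 74 reads. Male replicate 4 was at 52.9% of the mean of the other 2 libraries of its group, yet above every library labelled female. The mean fell from 25.2 ± 8.14 to 2.47 ± 1.10 (SD, n = 3), to 9.78%. On the log2 scale, the difference was -2.92 (SE 0.30, limma adjusted p = 4.16e-05), and -3.21 without male replicate 4. Relative to its mean, the spread among replicates was wide in both groups, at 32.3% and 44.4%.

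Cxcl10, an interferon-induced ligand of CXCR3, was even among the libraries labelled male, at 7.30, 8.31 and 8.16. Those labelled female gave 10.002, 5.92 and 17.4, the lowest and the highest value of all 6 libraries. The log2 difference of 0.33 (95% interval from -0.36 to 1.01, limma adjusted p = 0.351) did not pass the test. It was 0.28 without male replicate 4, 0.67 without female replicate 5 (limma adjusted p = 0.0289) and -0.03 without female replicate 6 (limma adjusted p = 0.904). Female replicate 6 was also the highest of its group for the interferon signalling genes Irf7 (49.4 against 24.9 and 26.7) and Irf9 (31.0 against 19.1 and 21.6). In GENCODE M21, exons of Cxcl10 overlap those of Art3, which was read at 1.59 to 1.75 in the libraries labelled male and 7.17 to 9.01 in those labelled female. Of the 50-base words of Cxcl10's longest coding transcript there, 0.0% also occur in transcripts of another gene. How reads were assigned between Cxcl10 and Art3 was not tested.

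**Figure D3:**
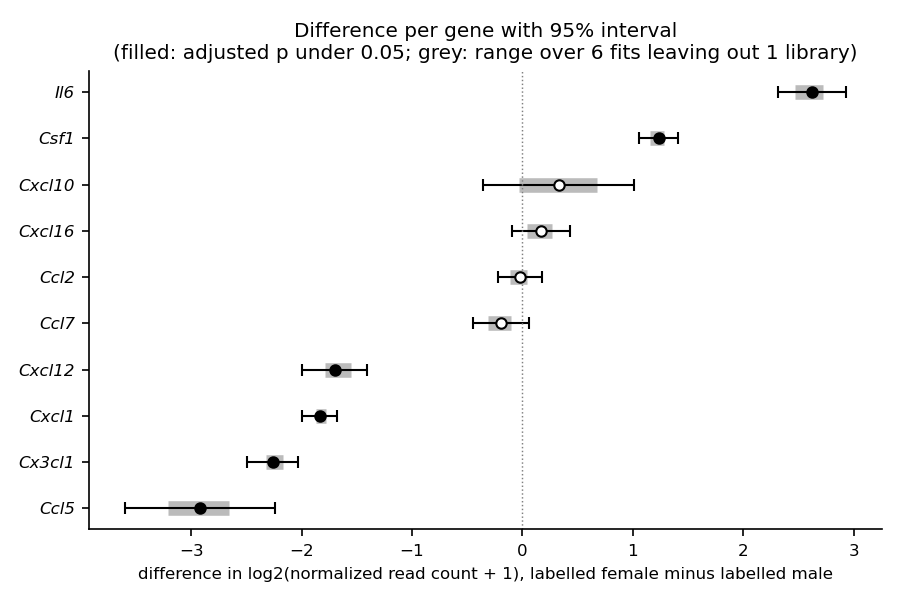
Difference in log2(normalized read count + 1), libraries labelled female minus those labelled male (x axis), for the 10 genes, with 95% intervals. Filled points passed the adjusted p of 0.05, and grey bars span the 6 fits that each left out 1 library. Il6 (2.62) and Csf1 (1.23) are above 0, Cxcl12 (-1.70), Cxcl1 (-1.84), Cx3cl1 (-2.26) and Ccl5 (-2.92) below it, and the intervals of the other 4 include it.

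Levels of different genes were compared per kilobase of the longest coding transcript in GENCODE M21. The order depends on that length, and which transcript of each gene was present was not tested. In the libraries labelled male, the normalized read count per kilobase was highest for Cxcl1 (286 ± 7.55, SD, n = 3), Cxcl12 (229 ± 42.5), Csf1 (154 ± 13.6) and Ccl2 (138 ± 14.96). Below these stood Ccl7 (85.7 ± 12.4), Ccl5 (47.4 ± 15.3), Cx3cl1 (14.6 ± 0.659), Cxcl16 (8.25 ± 0.214), Cxcl10 (5.86 ± 0.403) and Il6 (1.82 ± 0.390). Neighbours in this order overlapped for Cxcl1 with Cxcl12 and for Csf1 with Ccl2. In the libraries labelled female, Csf1 led at 361 ± 9.67 per kilobase, and Ccl2 came next at 135 ± 6.22. Cxcl1 (79.5 ± 5.66), Ccl7 (74.3 ± 5.66) and Cxcl12 (69.8 ± 6.28) overlapped with their neighbours among these 3. Il6, lowest of the 10 in the libraries labelled male, was sixth at 13.3 ± 0.163. Cxcl16 (9.40 ± 1.57), Cxcl10 (8.21 ± 4.29), Ccl5 (4.64 ± 2.06) and Cx3cl1 (2.83 ± 0.343) followed, each overlapping with the next.

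Of 30 other chemokine genes listed, 13 were in the table and 9 tested. Among the 7 that reached a value of 1 in both groups, 4 were called lower and 0 higher. Of all 11882 genes that reached that value in both groups, 3993 were called lower and 4033 higher. Over all tested genes, 34.6% were called lower and 34.6% higher. The lists that follow are read against these counts and shares. Cxcl2, which like Cxcl1 draws neutrophils through CXCR2, fell from 52.3, 110 and 119 in male replicates 4, 5 and 6 to 5.27, 3.93 and 4.56 (log2 difference -4.00, SE 0.28, limma adjusted p = 4.87e-06). Cxcl5, of the same receptor, was at 61.4 to 63.0 against 9.95 to 22.2 (log2 difference -2.11, SE 0.24, limma adjusted p = 9.26e-05). Cxcl3, a close relative, was not called (3.19 to 5.11 against 2.03 to 4.03, limma adjusted p = 0.189), though it was without male replicate 4 (-0.50, limma adjusted p = 0.0465). The other genes called lower were Ccl9 (-1.03) and Pf4 (-1.48). Ccl20 and Ccl17 passed the filter on low values only through the libraries labelled female, so their difference is given as a description. These 4 genes were weakly read and named after their values were seen. Ccl20, which attracts CCR6-bearing lymphocytes, had 3, 3 and 6 reads in male replicates 4, 5 and 6 and 232, 196 and 182 in the female replicates. Ccl17 had 1 read in each library labelled male and 49, 42 and 22 reads in those labelled female, at least 14.3-fold higher against a floor of 3 reads per library.

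Of 21 other cytokines listed, 16 were in the table and 12 tested. Of the 10 that reached a value of 1 in both groups, 5 were called lower and 4 higher. The other 2, Il1a and Csf2, passed the filter through 1 group alone. Il33, an alarmin held in endothelial nuclei, fell from 119, 134 and 137 to 4.81, 2.52 and 4.80 (log2 difference -4.73, SE 0.19, limma adjusted p = 2.29e-07). Csf3, the granulocyte growth factor, fell from 24.3 to 33.0 to between 1.66 and 2.45 (log2 difference -3.30, limma adjusted p = 3.90e-07). Lif, which signals through gp130 as IL-6 does, was at 129 to 154 against 28.4 to 32.5 (log2 difference -2.15, limma adjusted p = 2.33e-07). In contrast to these, Il7, a lymphocyte survival factor, rose from 0.664 to 1.45 to between 12.1 and 12.7 (log2 difference 2.68, limma adjusted p = 1.56e-06). Kitl, the stem cell factor, rose from 130 to 173 to between 259 and 316 (log2 difference 0.95, limma adjusted p = 0.000144). Il34, the other ligand of CSF1R, went the same way as Csf1, at 1.08 to 1.59 against 4.95 to 6.76 (log2 difference 1.57, limma adjusted p = 2.20e-05), and is named outside the rule for naming genes.

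**Figure D4:**
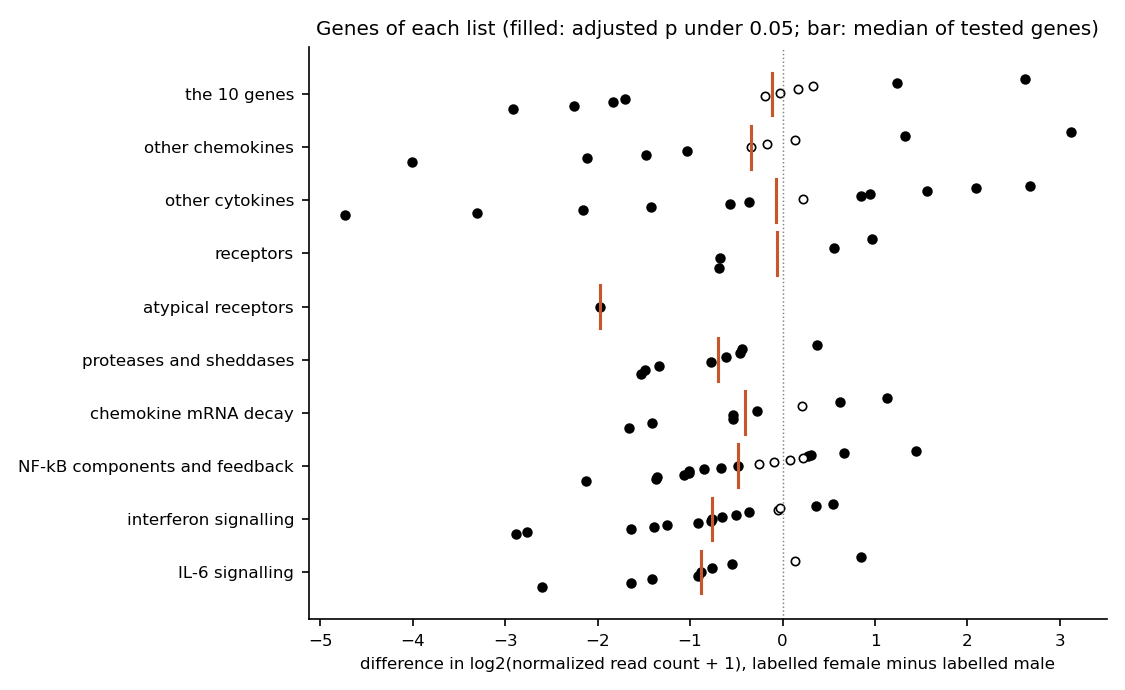
Difference in log2(normalized read count + 1), libraries labelled female minus those labelled male (x axis), of every tested gene of each list (rows). Filled points passed the adjusted p of 0.05 and the orange bar is the median of the list. Other cytokines spread to both sides of 0. The other chemokines called above 0 are Ccl17 and Ccl20, which passed the filter only through the libraries labelled female. Interferon signalling (median -0.77) and IL-6 signalling (median -0.88) lie mostly below 0.

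Of 12 listed receptors of the 10 ligands, 7 were in the table and 4 were tested, and 2 were called in each direction. Il6st, which encodes gp130, was at 1039, 775 and 782 in male replicates 4, 5 and 6 and at 489, 541 and 582 in the female replicates (log2 difference -0.68, SE 0.12, limma adjusted p = 0.00117). Il6ra, the IL-6 binding chain, was at 12.3 to 13.6 against 7.22 to 7.84 (log2 difference -0.69, SE 0.09, limma adjusted p = 0.000217). Both chains of the receptor were thus lower in the libraries in which Il6 was higher. Ccr1 (6 to 12 reads against 17 to 29) and Cxcr3 (1 to 5 reads against 0 in each) were below the filter and not tested. Among atypical receptors, which bind chemokines without G protein signalling, Ackr3 was the only gene of 4 above the filter. Ackr1, the venular chemokine carrier, had 3 to 8 reads in the libraries labelled male and 0 in each labelled female.

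Most genes of the IL-6 signalling list were called lower in the libraries in which Il6 was higher. The list mixes pathway components, such as Jak1 and Stat3, with induced genes, and signalling itself was not tested. The list had 9 genes above the filter, of which 7 were called lower and 1 higher (median log2 difference -0.88). Without male replicate 4, Pim1 was called higher as well (0.26, limma adjusted p = 0.0478). Socs3, a feedback inhibitor induced by STAT3, fell from 31.6 to 41.1 to between 9.88 and 11.4 (log2 difference -1.64, SE 0.11, limma adjusted p = 4.38e-06). Junb fell from 319, 736 and 740 to 97.8, 94.7 and 81.3 (log2 difference -2.60, SE 0.29, limma adjusted p = 7.37e-05). Ptpn11, a phosphatase that gp130 recruits, was the gene called higher (161 to 217 against 309 to 340, log2 difference 0.85, limma adjusted p = 0.000176).

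The NF-kB list held 17 genes, all tested, with 9 called lower and 4 higher (median log2 difference -0.48). Without male replicate 4 the higher calls were 5, with Nfkbiz added (0.13, limma adjusted p = 0.0486, where it was -0.25 and not called with all libraries). Nfkbia, the inhibitor that NF-kB itself induces, fell from 289, 350 and 352 in male replicates 4, 5 and 6 to 73.9, 75.1 and 75.5 (log2 difference -2.12, SE 0.08, limma adjusted p = 2.12e-07). Birc3, another induced target, fell from 35.0 to 46.3 to between 14.4 and 17.6 (log2 difference -1.37, limma adjusted p = 2.26e-05). The kinase subunits Ikbkg (69.2 to 79.1 against 197 to 200, log2 difference 1.44, limma adjusted p = 5.13e-07) and Chuk (45.8 to 49.4 against 74.4 to 77.3, log2 difference 0.67, limma adjusted p = 2.43e-05) rose. Rela, the main activating subunit, was slightly higher (64.8 to 74.9 against 82.5 to 83.2, log2 difference 0.28, limma adjusted p = 0.00771).

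All 15 interferon signalling genes were tested. Lower calls numbered 11 and higher calls 2, with a median log2 difference of -0.77. Irf7 fell from 234 to 249 to between 24.9 and 49.4 (log2 difference -2.88, SE 0.22, limma adjusted p = 8.39e-06). Irf1, a factor at the Cxcl10 and Ccl5 promoters, fell from 45.7, 92.8 and 93.1 to 9.42, 8.58 and 12.3 (log2 difference -2.76, SE 0.26, limma adjusted p = 2.95e-05). Ccl5 fell with these factors, whereas Cxcl10 was not called. Those called higher were Irf3 (log2 difference 0.55, limma adjusted p = 0.00583) and Tyk2 (log2 difference 0.37, limma adjusted p = 0.0126).

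Of 8 tested genes for RNA-binding proteins that act on cytokine mRNAs, 6 encode proteins that shorten mRNA life, and of these 4 were called lower and 2 higher. The other 2, Elavl1 and Arid5a, encode proteins that stabilise mRNA. Elavl1 was not called, and Arid5a was called lower (-0.53, limma adjusted p = 0.0378) but not without male replicate 4 (-0.31, limma adjusted p = 0.0506). Zfp36, which encodes tristetraprolin, fell from 93.0 to 103 to between 29.3 and 31.5 (log2 difference -1.66, SE 0.07, limma adjusted p = 2.73e-07), and Zfp36l1 from 127 to 144 to between 50.4 and 51.1 (log2 difference -1.41, limma adjusted p = 4.93e-07). Rc3h2, one of the Roquin genes, rose from 60.1 to 73.3 to between 141 and 145 (log2 difference 1.13, limma adjusted p = 6.32e-06), and Rc3h1, the other, rose as well (log2 difference 0.62, limma adjusted p = 0.00518). Of 8 tested proteases that release or trim these ligands, Mmp9 passed the filter only through the libraries labelled male. Of the other 7, 6 were called lower and 1 higher. Mmp2, which cleaves CXCL12 among other chemokines, was at 521 to 576 against 179 to 204 (log2 difference -1.49, SE 0.07, limma adjusted p = 6.03e-07). Mmp14 was at 579 to 636 against 331 to 365 (log2 difference -0.77, limma adjusted p = 1.71e-05). The gene called higher was Dpp4, which trims chemokine N termini and was weakly read (0.746 to 1.14 against 1.24 to 1.54, limma adjusted p = 0.0335). That call held in 5 of the 12 alternatives that gave Dpp4 a value, and was lost without male replicate 4 (limma adjusted p = 0.0865).

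In the authors' deposited table, 4 of the 10 genes had a false discovery rate under 0.05, against 25.8% of all its genes. The authors' deposited table gives a fold change of 7.27 for Il6 (false discovery rate 0.00517), 2.35 for Csf1 (0.000771), -5.17 for Cx3cl1 (0.000119) and -10.2 for Ccl5 (0.00801). Cxcl1 (-3.60, false discovery rate 0.192) and Cxcl12 (-3.28, 0.199) are not called in the authors' deposited table, though called by limma here. On recovered reads, edgeR also called Cxcl1 (edgeR adjusted p = 2.43e-07) and Cxcl12 (edgeR adjusted p = 1.01e-05). Ccl2, Ccl7, Cxcl10 and Cxcl16 are not called in the authors' deposited table either, their false discovery rates running from 0.723 to 0.983.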

How the data were processed

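Bowtie2, RSEM, edgeR and the build mm39 are named, without role or version, per the submitters' processing notes. The deposited signal values are read counts that the authors divided by 1 factor per library: dividing each column by its lowest nonzero entry made 100% of its values whole (tolerance 1e-06 of the value), which gave back the reads. Per the file headers, the authors also gave a fold change, a score whose sign is negative where female was lower, with its p-value and false discovery rate. There were 0 per-sample columns without a sample.

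Groups came from the sex label. limma 3.58.1 in R 4.3.3 with an intensity trend fitted log2(value + 1), which understates changes of weakly read genes. Genes were tested if 3 or more libraries reached a value of 1. Alternatives were RLE size factors, other filters, a pseudocount of 0.1, edgeR 4.0.16 and DESeq2 1.42.0 on recovered reads, the replicate block, and each library left out. The fits were tested on simulated data. The genes and lists were chosen with earlier results of these data known. Named genes were the 10, their receptors, and called list genes with a mean of at least 5, the 2 largest changes each way first. Other genes printed with a value were chosen after their values were seen. Floors cover counting error only.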

Additional observations from a re-analysis of the deposited data

How the results depend on the processing

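The 6 called genes kept direction and call under all 13 alternatives. Recomputing the 10 genes gave 130 values. Direction and call were kept in 124, and the other 6 belonged to genes that were not called: Ccl7 passed as lower without male replicate 4 (-0.31), and Cxcl10 passed as higher without female replicate 5 (0.67). The sign of Cxcl10 turned without female replicate 6 (-0.0301), and that of Ccl2 without male replicate 5 (0.0048), male replicate 6 (0.0399) and female replicate 6 (0.00314), its range with 1 library left out being -0.112 to 0.0399. The number of the 10 genes called was 6 under each alternative with all libraries and ran from 6 to 7 with 1 left out.

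The 8704 genes called overall became 7684 to 9085 under the alternatives with all libraries and 7373 to 9113 with 1 left out. With no filter, 3 atypical receptors were called instead of 1, and requiring a value of at least 1 in every library left 5 proteases called instead of 8. Of the other chemokines, 4 were called (0 higher) under that filter and without any one female library, instead of 6 (2 higher), and with no filter 6 receptors were called instead of 4. In these cases the number of genes tested changed by construction. The protease called higher, Dpp4, was not called under DESeq2 or the replicate block. Replicate numbers gave no pairing of the libraries (correlations of deviations -0.0936, -0.0303 and -0.17), and with the replicate block 8314 genes and 6 of the 10 were called.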

Other observations

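Over the 6 libraries, the gene most alike to each of the 10 was the one whose centred log2(normalized read count + 1) had the smallest root mean square difference, among 10324 genes with a mean of at least 5. For Il6 it was Il7, another cytokine gene (0.0418), and for Csf1 it was Actb, the cytoplasmic actin (0.0354). For Cxcl12 it was Pik3r1, a regulatory subunit of PI3 kinase (0.0408), whose 3 male values (301, 218 and 225) are also highest in replicate 4. Ccl5 was closest to Ifi205, an interferon-inducible gene, though at a larger distance (0.217), and Cx3cl1 to Tspan18, a tetraspanin (0.0647). Cxcl1 was closest to Sh2b2 (0.0450), Ccl2 to Atp5d (0.0159), Ccl7 to Trappc6a (0.0282), Cxcl16 to Tom1l2 (0.0471) and Cxcl10 to 0610010B08Rik (0.268). With 6 libraries in 2 groups the likeness follows mainly the group difference and is a description.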
